A study of Mus musculus with 6 samples.

Results

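The genes described here are 10 transcriptional regulators that have been linked with loss of beta cell differentiation, namely Id1, Id2, Id3, Id4, Hes1, Klf4, Klf6, Klf10, Myc and Sox9. They were chosen by symbol, with earlier results of these data known. All 14 of their probe rows were taken from a table of 30146 rows for 21400 gene symbols. The islets came from 3 male wild-type C57Bl/6 mice. For each mouse, one portion was kept for 48 h in 10 uM cisplatin, a DNA-crosslinking platinum drug, and the other in its vehicle, 0.9% saline. The labels give no age. Expression was measured by TempO-Seq, which ligates paired probes hybridised to neighbouring bases of a transcript and counts the amplified products. A row therefore reports the short stretch of RNA under its probe. Libraries are numbered 1 to 3 by mouse in each arm.

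ID proteins carry a helix-loop-helix but no DNA-binding region, so they pair with basic helix-loop-helix (bHLH) factors and keep them off their E-box sites. HES1 is a repressor induced by Notch receptors that holds back endocrine commitment in the developing pancreas. KLF proteins are zinc finger factors that bind GC-rich and CACCC sites, and MYC binds CACGTG E-boxes together with its partner MAX and drives growth genes. SOX9 marks pancreatic progenitors and, in the adult organ, duct cells.

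RefSeq promoter windows were matched for 5 of the 10 genes, and 4 are shown because they belong to the 3 of these genes with a called rise and to Id3, the ID gene whose values lay on the other side. Each run is the 250 bases before the annotated start, read 5′ to 3′ on the strand of the gene, and capitals mark E-boxes, CANNTG.
Id2, GRCm38.p6 chr12:25096093-25096342, minus strand: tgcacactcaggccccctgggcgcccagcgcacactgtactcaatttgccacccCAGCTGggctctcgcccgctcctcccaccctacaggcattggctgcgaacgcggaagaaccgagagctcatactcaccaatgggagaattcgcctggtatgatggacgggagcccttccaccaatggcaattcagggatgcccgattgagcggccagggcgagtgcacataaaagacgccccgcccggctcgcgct
Klf4, GRCm38.p6 chr4:55532476-55532725, minus strand: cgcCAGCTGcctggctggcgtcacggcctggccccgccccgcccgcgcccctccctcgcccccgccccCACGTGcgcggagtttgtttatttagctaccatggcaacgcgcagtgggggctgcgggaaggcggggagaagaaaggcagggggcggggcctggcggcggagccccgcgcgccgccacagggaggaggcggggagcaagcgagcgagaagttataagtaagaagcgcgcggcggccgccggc
Klf6, GRCm38.p6 chr13:5861239-5861488, plus strand: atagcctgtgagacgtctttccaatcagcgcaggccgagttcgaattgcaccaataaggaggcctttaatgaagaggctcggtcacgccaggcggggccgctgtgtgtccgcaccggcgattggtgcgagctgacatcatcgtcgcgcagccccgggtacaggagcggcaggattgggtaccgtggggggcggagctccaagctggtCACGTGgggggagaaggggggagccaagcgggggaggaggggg
Id3, GRCm38.p6 chr4:136143572-136143821, plus strand: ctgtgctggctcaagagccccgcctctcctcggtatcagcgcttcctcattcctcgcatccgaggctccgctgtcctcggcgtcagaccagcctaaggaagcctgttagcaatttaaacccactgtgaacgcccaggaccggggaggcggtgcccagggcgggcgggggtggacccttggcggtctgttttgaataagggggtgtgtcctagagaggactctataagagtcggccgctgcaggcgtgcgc

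E-boxes were found once upstream of Id2 (CAGCTG, 196 bases before the start), in 2 places upstream of Klf4 (CAGCTG and CACGTG, 247 and 182 bases before the start) and once upstream of Klf6 (CACGTG, 43 bases before the start). The Id3 window held 0. On both strands CANNTG occurred in 66.2% of all 32851 promoter windows of this length, and CACGTG, which is a case of CANNTG, in 6.02%. The GC box GGGCGG was found once upstream of Id2, once upstream of Klf6, in 2 places upstream of Id3 and in 4 upstream of Klf4. Of all windows 32.7% had at least 1 match. The Id4 window, matched but not shown, held 0 E-boxes and 5 GC boxes at 75.6% GC. The 4 windows shown were 62.8% to 74.0% GC, against a median of 52.4% over all windows. The letters GTGGGAA, which the Notch effector RBPJ recognises, were in 0 of these 4 windows and in 5.42% of all. At that rate 0 in 4 windows says little, and Hes1 had no matched window to search. These matches describe letters in a window, and binding was not measured.

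The 6 libraries held 1116916 to 2272276 counts, fewer in each cisplatin library than in any vehicle library. Cisplatin library 3 stood apart, with 28.6% of its counts on mitochondrially encoded rows against 0.188% to 3.11% in the other 5. The mature beta cell list, which includes insulin, summed to 77774 to 155333 CPM (counts scaled to library size with TMM factors) with cisplatin and 110892 to 184543 with vehicle, so beta cell RNA was present in all 6 libraries. In whole islets fewer cells of a type and less RNA per cell cannot be told apart. Results are given as log2 fold changes of cisplatin over vehicle with their standard errors (SE), tested in edgeR's quasi-likelihood fit over all rows and called at a Benjamini-Hochberg adjusted p under 0.05.

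Cisplatin islets had more RNA of Id2, Hes1, Klf4 and Klf6 than vehicle islets, by 4.80-fold to 10.5-fold in the fit. Of the 14 rows 7, covering 6 genes, had enough counts to be tested, and 4 were called higher and 0 lower. Over all 9381 tested rows 25.0% were called, 11.1% higher and 13.9% lower. The groups did not overlap for 4 of the 7 tested rows on the higher side and for 1 on the lower side, against 19.1% and 24.3% of all tested rows. These counts are a description and no sign of enrichment, because the genes were chosen with earlier results of these data known. The Klf6 row, in addition, reached the level needed for testing in 3 cisplatin libraries and in 0 vehicle libraries. Id2 probe 77417 and Hes1 reached it in all 6 libraries and Klf4 probe 29531 in 5. All 4 calls held under each of the 15 other settings that were run, among them a mouse block and leaving out cisplatin library 3. Where a gene's probes were summed, the call is that of the whole gene.

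**Figure D1:**
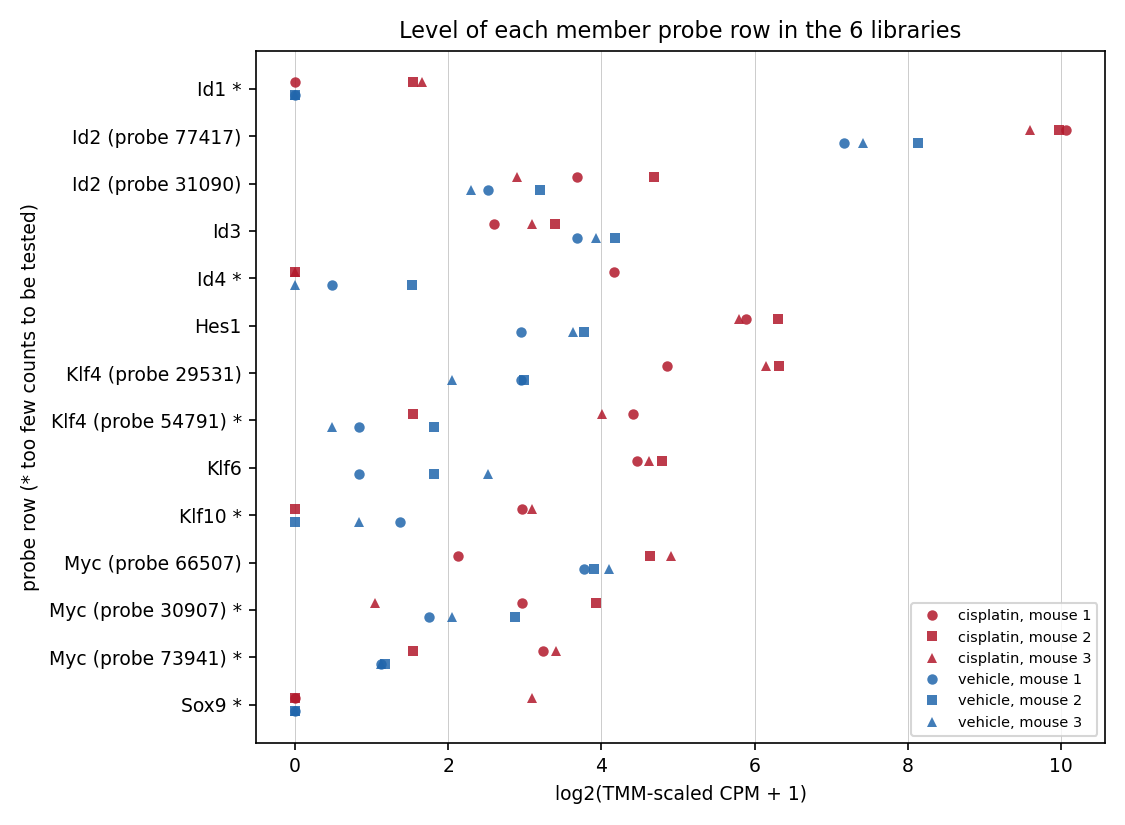
Level of every probe row of the 10 genes as log2 of TMM-scaled CPM plus 1, with 1 point per library, cisplatin in red, vehicle in blue and the mouse given by the symbol. The 3 cisplatin points lie above the 3 vehicle points for Id2 probe 77417, Hes1, Klf4 probe 29531, Klf6 and Myc probe 73941, and below them for Id3; an asterisk marks rows with too few counts to be tested.

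Id2, an ID protein whose targets include the E proteins, was the ID gene with the most counts. Its probe 77417 gave 1070, 1001 and 769 CPM in cisplatin libraries 1 to 3 and 142, 280 and 170 CPM in vehicle libraries 1 to 3. Every cisplatin library lay above every vehicle library, and the lowest cisplatin value was in library 3. The mean rose from 198 ± 73.0 to 947 ± 158 CPM (SD, n = 3), a log2 fold change of 2.26 ± 0.32 (edgeR adjusted p = 0.000259). Within mice the ratio was 7.52, 3.57 and 4.52. The vehicle mean of this row was above that of 93.5% of tested rows and the cisplatin mean above that of 99.0%, on a scale of counts per probe on which probes may differ in capture.

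The second Id2 row, probe 31090, held far fewer counts. It gave 11.8, 24.7 and 6.43 CPM with cisplatin and 4.74, 8.21 and 3.94 CPM with vehicle. The cisplatin value was the higher in 3 of 3 mice, but the groups overlapped and the row was not called (log2 fold change 1.36 ± 0.74, edgeR adjusted p = 0.197). Without cisplatin library 2 its log2 fold change was 0.71 (edgeR adjusted p = 0.605). Probe 77417 held 98.6% ± 0.846 of Id2 counts with cisplatin and 97.2% ± 0.485 with vehicle (SD, n = 3, two-sided exact permutation p = 0.2, 0.5 adjusted over 5 probe shares, where 0.1 is the smallest p possible).

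Id3, which acts on bHLH factors as Id2 does, had lower values with cisplatin and was not called. Its row gave 5.07, 9.51 and 7.51 CPM with cisplatin and 11.9, 17.0 and 14.2 CPM with vehicle. All 3 cisplatin values lay below the 3 vehicle values, on 6 to 10 counts per cisplatin library and 27 to 36 per vehicle library. The log2 fold change was -0.96 ± 0.63 (edgeR adjusted p = 0.298), and it stayed below 0 and not called in the 14 other settings where the row was tested. Id2 probe 77417 had 211, 105 and 102 counts for each Id3 count in cisplatin libraries 1 to 3 and 12.0, 16.4 and 12.0 in vehicle libraries, a comparison picked after the values were seen, given without a test, that does not depend on how libraries are scaled.

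Id1 and Id4 were near the limit of detection. Id1 had 0, 2 and 2 counts in cisplatin libraries 1 to 3 and 0 in every vehicle library, at least 2.80-fold higher against a floor of 3 counts over the vehicle group. That floor leaves out the counting error of the 4 cisplatin counts, and the exact 95% counting interval of the ratio starts at 1.39. Id4, an ID gene known from neural development, had 20, 0 and 0 counts with cisplatin and 1, 3 and 0 with vehicle. All its cisplatin counts lay in library 1, so the ratio of pooled counts, 10.5 (95% counting interval 3.52 to 42.3), rests on that library. Neither was tested, and with no filter on low counts neither was called (edgeR adjusted p = 0.288 for Id1 and 0.292 for Id4). Such intervals and floors reflect counting error alone, as reads copied by amplification do not each stand for a molecule.

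Hes1 rose with cisplatin and was higher in 3 of 3 mice. Its row gave 58.3, 78.0 and 54.7 CPM with cisplatin and 6.72, 12.6 and 11.4 CPM with vehicle. The groups were far apart, with the lowest cisplatin library above the highest vehicle library. The mean rose from 10.3 ± 3.12 to 63.7 ± 12.5 CPM (SD, n = 3), a log2 fold change of 2.64 ± 0.42 (edgeR adjusted p = 0.00069). Within mice the ratio was 8.68, 6.17 and 4.79. Other genes of this family had few counts and were not tested. Before scaling Hes5 had 7 counts in each arm, Hes6 had 8 with cisplatin and 10 with vehicle, and Hey1 had 1 and 3. As the cisplatin libraries were smaller, the pooled counts of Hes5 and Hes6 are higher with cisplatin after scaling, and those of Hey1 lower.

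Klf4, a factor of epithelial differentiation and of reprogramming, also rose with cisplatin. Its probe 29531 gave 27.9, 78.9 and 69.7 CPM with cisplatin and 6.72, 6.95 and 3.15 CPM with vehicle. The lowest cisplatin value, in library 1, was still above every vehicle value. The mean rose from 5.60 ± 2.13 to 58.8 ± 27.2 CPM (SD, n = 3), a log2 fold change of 3.39 ± 0.54 (edgeR adjusted p = 0.00064). The ratio differed between mice, at 4.15, 11.4 and 22.1.

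The other Klf4 row, probe 54791, had 24, 2 and 14 counts with cisplatin and 2, 4 and 1 with vehicle, too few to be tested. It was higher with cisplatin in mice 1 and 3 and lower in mouse 2. Cisplatin library 2 was thus low for this probe and high for probe 29531. With no filter it was not called (log2 fold change 3.25 ± 1.15, edgeR adjusted p = 0.0503), and it was called without cisplatin library 2 (3.87 ± 0.98, edgeR adjusted p = 0.0199) but not without vehicle library 1, 2 or 3 (edgeR adjusted p = 0.178, 0.0532 and 0.187). The share of Klf4 counts on probe 29531 was 57.9%, 97.6% and 82.3% with cisplatin and 89.5%, 73.3% and 88.9% with vehicle (two-sided exact permutation p = 0.8).

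Klf6, a KLF factor induced early after tissue injury, rose to a similar level in all 3 cisplatin libraries. Its row gave 21.1, 26.6 and 23.6 CPM with cisplatin and 0.791, 2.53 and 4.72 CPM with vehicle. The vehicle values rest on 2, 4 and 12 counts, and the cisplatin values on 25, 28 and 22. The mean rose from 2.68 ± 1.97 to 23.8 ± 2.74 CPM (SD, n = 3), a log2 fold change of 3.11 ± 0.71 (edgeR adjusted p = 0.00637). It was 3.83 without vehicle library 3, which held most of the vehicle counts. The ratio was uneven between mice, at 26.7, 10.5 and 5.00, on these small vehicle counts.

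Klf10, a target of TGF-beta signalling, had 8, 0 and 7 counts with cisplatin and 4, 0 and 2 with vehicle. It was not tested, and mouse 2 had 0 counts in both arms. The ratio of pooled counts was 5.25 (95% counting interval 1.93 to 16.5). With no filter it was not called (edgeR adjusted p = 0.415).

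Myc was measured by 3 probes, and none was called. Probe 66507, the most abundant, gave 3.38, 23.8 and 29.0 CPM with cisplatin and 12.6, 13.9 and 16.1 CPM with vehicle. Cisplatin library 1 lay below the vehicle libraries and the other two above them. The log2 fold change was 0.38 ± 0.66 (edgeR adjusted p = 0.728), at 0.98 without cisplatin library 1 and below 0 with library totals alone, with limma-voom and without cisplatin library 3.

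The 2 other Myc probes had too few counts to be tested. Probe 30907 had 8, 15 and 1 counts with cisplatin and 6, 10 and 8 with vehicle. Probe 73941 had 10, 2 and 9 with cisplatin and 3, 2 and 3 with vehicle, and on the CPM scale its groups did not overlap. In cisplatin library 1 probe 66507 was the lowest of the 3, with 18.2% of Myc counts, against 59.5% and 73.0% in cisplatin libraries 2 and 3 and 64.7% to 78.8% with vehicle (two-sided exact permutation p = 0.2, 0.5 adjusted over 5 probe shares). With the 3 probes summed the log2 fold change of Myc was 0.72 ± 0.46 (edgeR adjusted p = 0.267).

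Sox9 had 0, 0 and 7 counts with cisplatin and 0 in every vehicle library. All of its counts lay in cisplatin library 3, so the value of at least 4.90-fold against a floor of 3 counts over the vehicle group rests on 1 library. The exact 95% counting interval of the ratio, which takes in the error of the 7 counts, starts at 3.03. Counts of 0 were thus found in 5 of the 6 libraries, and with no filter the row was not called (edgeR adjusted p = 0.193).

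**Figure D2:**
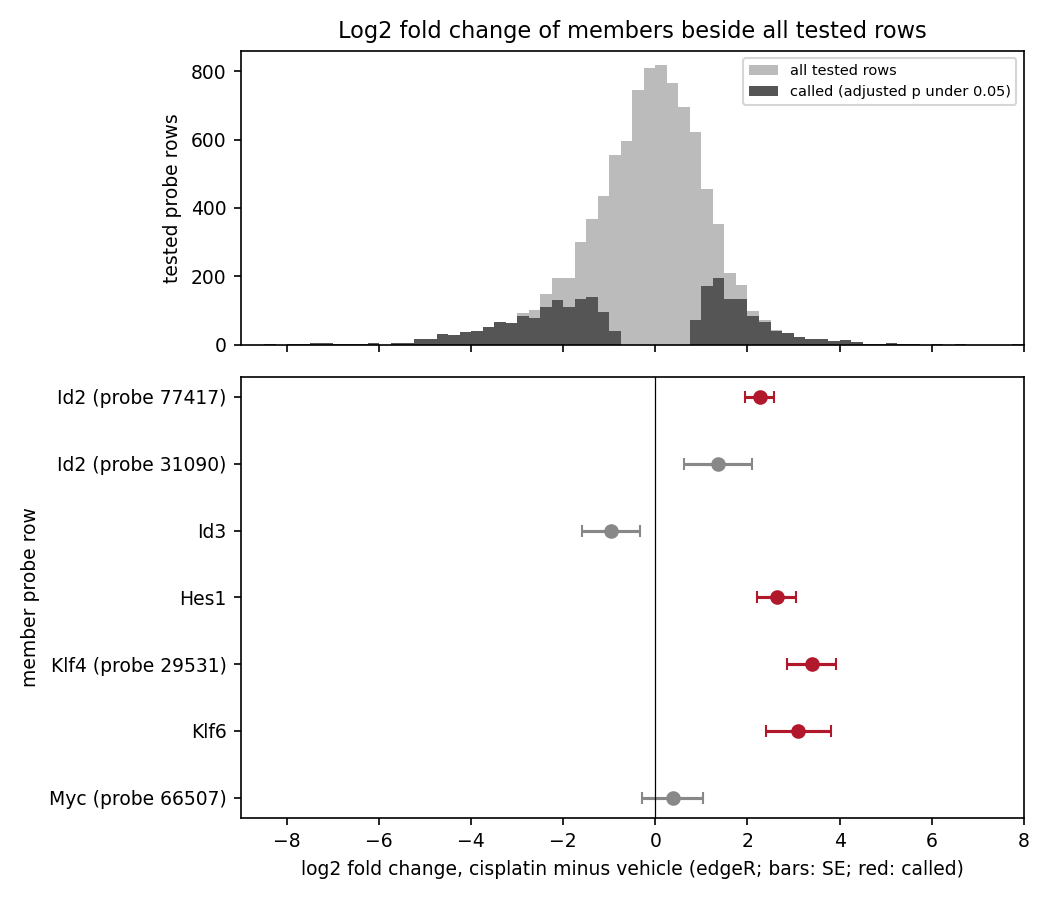
Top, log2 fold changes of all 9381 tested rows, with called rows in dark grey; bottom, the 7 tested rows of the 10 genes with their SE, called rows in red. Id2 probe 77417, Hes1, Klf4 and Klf6 lie between 2.26 and 3.39, Id2 probe 31090 and Myc lie above 0 without a call, and Id3 lies at -0.96.

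Of 12 tested genes for partners of ID proteins or of the MYC and MAX network, 0 were called higher and 3 lower. Their median log2 fold change was -0.61, against -0.07 over all tested rows. For this list and those below, the shares over all tested rows were 11.1% called higher and 13.9% lower. Tcf4, an E protein that ID proteins bind, fell from 99.1 ± 28.4 to 18.1 ± 9.97 CPM (SD, n = 3; log2 fold change -2.47 ± 0.44), and Tcf12, another E protein, changed by -2.72 ± 0.73. Tcf12 was not called without vehicle library 1 (edgeR adjusted p = 0.121) or 3 (edgeR adjusted p = 0.0829) or with limma-voom (adjusted p = 0.0584), and stood at -3.57 when cisplatin library 2 was left out. Mlxipl, the glucose-responsive factor ChREBP of the MAX network, changed by -2.39 ± 0.41. Not all of the list lay lower. Neurod1, its gene with the highest mean CPM, was at 0.90 ± 0.34 (edgeR adjusted p = 0.0644), without a call. Mlx was at 0.80 ± 0.30 (edgeR adjusted p = 0.0684), also without a call. Tcf3, also an E protein, was not tested, with 32 counts with cisplatin and 40 with vehicle before scaling. The cisplatin libraries were smaller, so after scaling these pooled counts are higher with cisplatin, unlike Tcf4 and Tcf12. Max itself was not called (0.36 ± 0.31), and with DESeq2 or limma-voom 2 genes of the list were called higher.

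Genes of BMP, TGF-beta and SMAD signalling, which includes the pathway that induces ID genes in many cells, were called higher in 1 and lower in 4 of 18 tested cases, with a median of -0.42. Inhba, which codes for the activin A subunit, gave 32.1, 20.0 and 19.3 CPM with cisplatin and 2.37, 0 and 3.15 CPM with vehicle (log2 fold change 3.55 ± 0.81, or 2.63 with its probes summed). The type I BMP and activin receptor gene Acvr1 changed by -2.03 ± 0.49 and the co-receptor gene Eng by -2.54 ± 0.71. Acvr1c, a receptor gene for activin-type ligands, fell from 117 counts in all vehicle libraries to 2, both in cisplatin library 1, a 27.8-fold lower level (95% counting interval 7.54 to 233). Acvr1 was not called without vehicle library 1 (edgeR adjusted p = 0.0538) and Eng not without vehicle library 1 (edgeR adjusted p = 0.153) or 3 (edgeR adjusted p = 0.0910), after thinning (edgeR adjusted p = 0.0814) or with limma-voom (adjusted p = 0.0741). Acvr1c was at -4.76 in the reported fit and -8.01 without cisplatin library 1, which leaves it 0 cisplatin counts. The number called lower was 1 without vehicle library 1, 2 without vehicle library 3 and 2 after thinning, and 2 were called higher without vehicle library 2.

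In the Notch list, the pathway upstream of Hes1, 1 of 22 tested genes was called higher and 2 lower, with a median of -0.21. The receptor gene Notch1 was not called (-0.24 ± 0.33), nor were the ligand genes Jag1 (-0.17 ± 0.54) and Dll4 (-1.49 ± 0.62, edgeR adjusted p = 0.0965). The coactivator genes Maml3 and Maml2 were called lower. Maml3 changed by -2.10 ± 0.54, or -2.92 without cisplatin library 3, and Maml2 went from 82 vehicle counts to 1 cisplatin count, in library 2, a 39.0-fold lower level (95% counting interval 6.81 to 1560). Its log2 fold change was -4.95, or -4.33 without cisplatin library 1 and -7.41 without cisplatin library 2. Without vehicle library 1 neither was called (edgeR adjusted p = 0.0664 and 0.0713), and without vehicle library 3 Maml2 was not (edgeR adjusted p = 0.0712). The number called higher was 0 with library totals alone or without any single vehicle library, and 2 with DESeq2. With library totals alone 4 genes were lower.

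**Figure D3:**
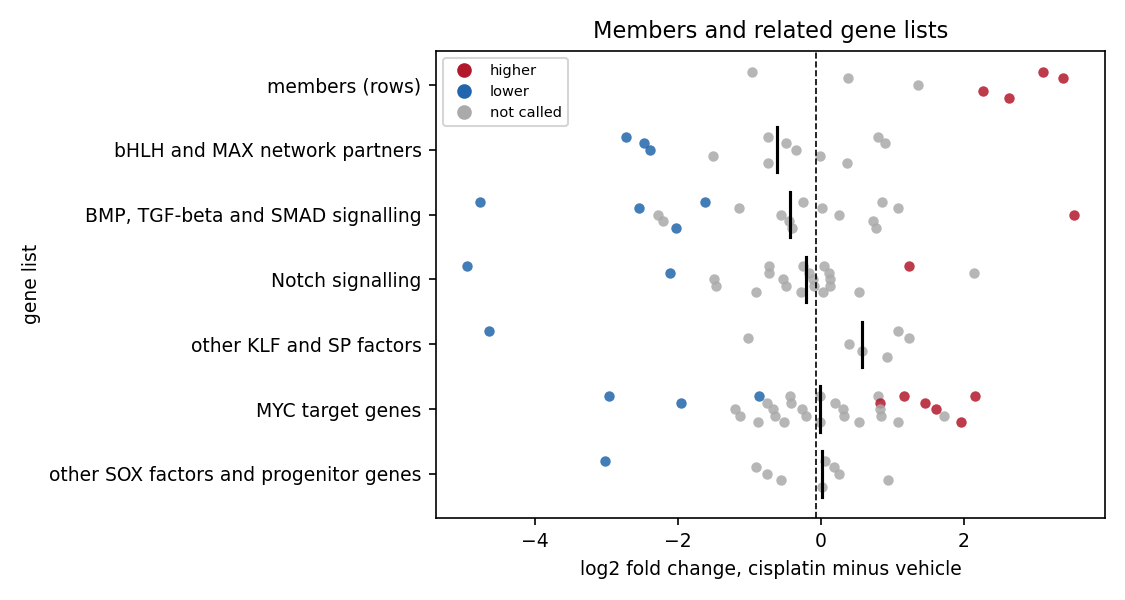
Log2 fold changes of the tested rows of the 10 genes and of the tested genes of 6 related lists, each point a row or gene, red called higher, blue called lower, grey not called. Short black lines are list medians and the dashed line is the median of all tested rows, -0.07; the list medians run from -0.61 for bHLH and MAX network partners to 0.58 for other KLF and SP factors.

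Other KLF and SP genes were called higher in 0 and lower in 1 of 7 tested cases, with a median of 0.58. Klf12, a repressor of the family, went from 166 vehicle counts to 3 cisplatin counts, a 26.3-fold lower level (95% counting interval 8.86 to 129). Its log2 fold change was -4.64, or -3.94 without cisplatin library 1 and -5.55 without cisplatin library 2. Klf11 (0.93 ± 0.33, edgeR adjusted p = 0.0542) and Klf7 (1.24 ± 0.47, edgeR adjusted p = 0.0706), picked after their values were seen, came close to the threshold. The number higher was 2 with DESeq2 or without cisplatin library 1 and 1 with RLE scaling, with limma-voom, with probes summed or after thinning, and 2 were lower with library totals alone.

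Of 31 tested MYC target genes 6 were called higher and 3 lower, with a median of -0.01. Odc1, the first enzyme of polyamine synthesis, rose from 35.8 ± 8.99 to 159 ± 47.8 CPM (SD, n = 3; log2 fold change 2.16 ± 0.35), and Ddx21, a nucleolar helicase, rose by 1.96 ± 0.30. The mitochondrial folate enzymes went the other way, with Mthfd2 falling from 105 ± 10.9 to 13.5 ± 1.46 CPM (-2.96 ± 0.36) and Shmt2 changing by -1.95 ± 0.42. Among 9 tested SOX factors and progenitor genes 0 were called higher and 1 lower, with a median of 0.02. That was Prom1, a membrane protein used as a progenitor marker, at -3.02 ± 0.58, or -2.41 without cisplatin library 1. Neurog3, the endocrine progenitor factor, had 4 counts in each arm before scaling, in cisplatin libraries that were smaller, and Nanog had 0 in both.

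Mature beta cell genes were called lower in 10 and higher in 0 of 20 tested cases, with a median of -1.39. Markers of other cell types were measured beside the genes described here, and their part in the results was not tested. Of 5 tested duct markers 2 were called higher and 0 lower (median 0.93), namely the simple epithelial keratins Krt8 (1.79 ± 0.26) and Krt18 (1.73 ± 0.28), and the 10 duct markers together summed to 2625 to 3736 CPM with cisplatin and 1684 to 2105 CPM with vehicle. The defining duct markers Krt19 and Cftr had 2 and 0 counts with cisplatin and 8 and 1 with vehicle. Endothelial markers, 12 in all, summed to 106 to 157 CPM with cisplatin and 85.2 to 155 CPM with vehicle, with 1 of 3 tested higher and 2 lower (median -2.54). These overlapping sums rest largely on Esam, with 332 counts with cisplatin and 256 with vehicle over its probes before scaling. Kdr had 11 and 241, Egfl7 3 and 136 and Eng 13 and 119, while Cldn5, with 6 and 0, went the way of Esam. Esam rose by 1.19 ± 0.40, but was called in 6 of the 15 other settings, and not with the mouse as a block (edgeR adjusted p = 0.0676). The receptor gene Kdr changed by -3.35 ± 0.65, or -4.39 without cisplatin library 1, and Eng was the other.

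Stromal markers, 11 in all, summed to 38.1 to 89.0 CPM with cisplatin and 63.1 to 244 CPM with vehicle, with 0 of 4 tested higher and 1 lower (median -0.42). Immune markers, 11 of 12 with a probe, summed to 20.3 to 114 CPM with cisplatin and 188 to 354 CPM with vehicle. Of 7 tested, 0 were called higher and 5 lower (median -3.03, or 3 lower without vehicle library 1 or 3). Acinar markers, 10 of 11 with a probe, summed to 10.7 to 43.1 CPM with cisplatin and 11.4 to 16.9 CPM with vehicle. The tested gene, the acinar factor Bhlha15, was not called (0.88 ± 0.84). Of these 3 lists the immune sums did not overlap between arms, and were lower with cisplatin.

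For the 3 called rows with the highest mean CPM, the tested rows of other genes with the most similar pattern were found by the mean absolute difference of centred log2 CPM over the 6 libraries. The nearest to Id2 were Rgs2 (0.12, log2 fold change 2.24 ± 0.33), which codes for a regulator of G protein signalling, and Rassf1 (0.14, 2.43 ± 0.64). Next to Hes1 were Apbb3 (0.11, 2.69 ± 0.54) and Spin4 (0.16, 2.89 ± 0.38). Next to Klf4 were Nfkb2 (0.14, 3.11 ± 0.53), an NF-kappaB subunit gene, and Slc23a3 (0.18, 3.50 ± 0.50). With 6 libraries in 2 arms this measure mostly follows the size of the difference between arms.

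**Figure D4:**
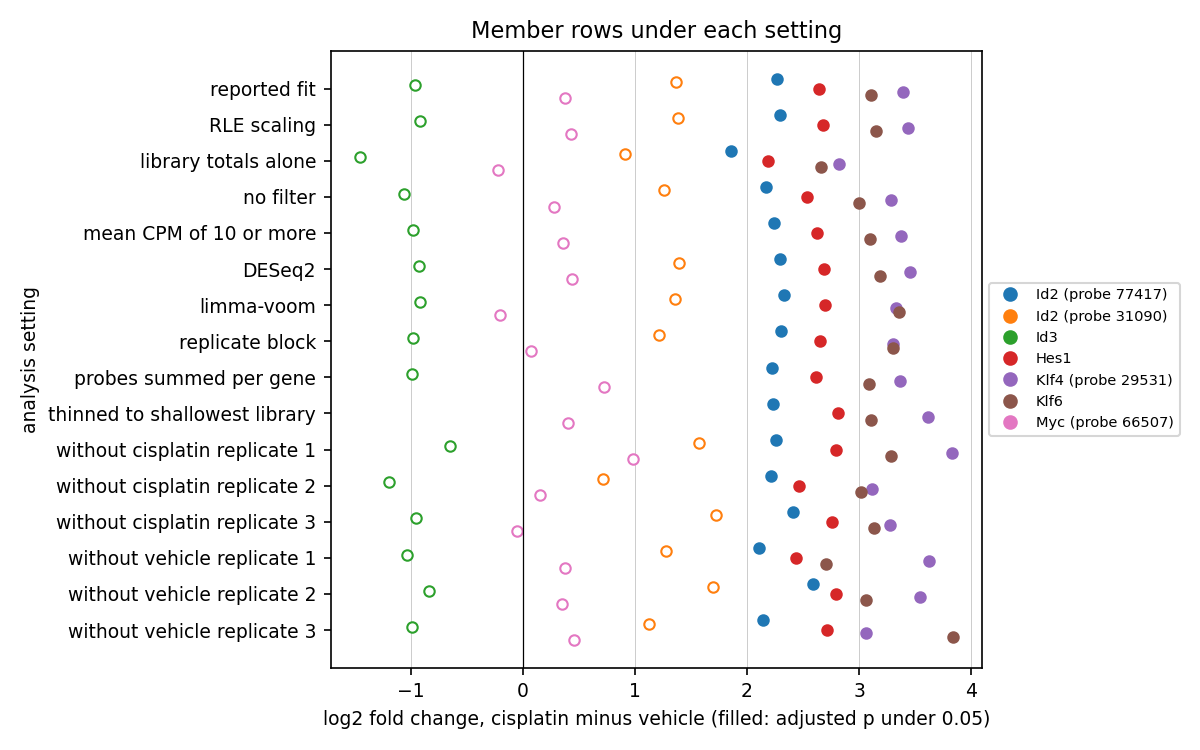
Log2 fold changes of the 7 tested rows in the reported fit and in the 15 other settings, filled where the adjusted p was under 0.05. In the line with probes summed, each point is a whole gene. Id2 probe 77417, Hes1, Klf4 and Klf6 are filled in every line, Id3 is open and below 0 wherever it was tested, and Myc crosses 0.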

How the data were processed

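Islet lysates were assayed with a mouse whole transcriptome TempO-Seq probe panel, per the labels' protocols. The authors deposited whole-number counts per probe row and library. Tools listed in the submitters' processing notes are DESeq2 1.44.0, STAR 2.7.10b and fastp 0.23.2, without their roles. For the alignment reference and the counting rule, the sources used here give nothing.

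Counts were analysed with edgeR 4.0.16 in R 4.3.3, with limma 3.58.1 and DESeq2 1.42.0 as alternatives. Rows passing edgeR's expression filter (minimum count 10), 9381 for 7193 genes, were scaled with TMM factors and tested with the quasi-likelihood F-test, treatment as the only term, two-sided. SE were derived from the F statistics. Totals averaged 1277000 ± 139200 counts with cisplatin and 1914000 ± 407700 with vehicle (SD, n = 3). P-values measure the spread between libraries, animal and assay variation together. The script was tested on simulated data.

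The 10 genes and the 12 related lists were chosen with earlier results of these data known. In lists a gene is represented by its row with the highest mean CPM. All rows of the 10 genes are reported, and from each related list up to 4 called genes of largest absolute log2 fold change, or the 2 of highest mean CPM if none was called; other genes were named after their values were seen. Marker lists and beta cell genes are given mainly as counts. A gene that the rule named is not reported here, while counts over lists include it.

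Both libraries of a mouse share an animal identifier in the labels, which pairs them. Deviations from group means correlated at -0.116, 0.0336 and 0.219 in the 3 pairs. No source states a mouse term, so a mouse block was an alternative. The others were RLE scaling, library totals alone, no filter, a mean CPM of at least 10, DESeq2, limma-voom, summing a gene's probes, thinning every library to the smallest total and leaving out each library. All pairs of libraries differed by more than sampling noise. Promoter sequences are RefSeq's, build GRCm38.p6.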

Additional observations from a re-analysis of the deposited data

How the results depend on the processing

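The calls of Id2 probe 77417, Hes1, Klf4 probe 29531 and Klf6 held in the 15 alternatives run, with log2 fold changes of 1.85 to 2.59, 2.19 to 2.81, 2.82 to 3.83 and 2.66 to 3.83 and highest edgeR adjusted p of 0.00441, 0.00855, 0.00549 and 0.0411. In the alternative that summed probes, the value is that of the whole gene and not of the named probe. The number of rows of the 10 genes called higher was 4 or 5, and 0 were lower in any alternative. Id3 ranged from -1.45 to -0.65 and was not called. Myc probe 66507 was at -0.22 with library totals alone, -0.21 with limma-voom and, with single libraries left out, ranged from -0.054 without cisplatin library 3 to 0.98 without cisplatin library 1, and the cause was not tested. Over all rows 2344 were called, against 1085 without vehicle library 1 and 1321 without vehicle library 3, and leaving out single libraries gave 1085 to 2538. Library totals alone put the median over all rows at -0.54 in place of -0.07 and moved the split from 1040 higher and 1304 lower to 459 and 2023. With the mouse as a replicate block 2197 rows were called and the 4 calls remained (log2 fold changes 2.31, 2.65, 3.30 and 3.30). Among the other named genes the block ended the call of Esam (edgeR adjusted p = 0.0676) and of no other. In the related lists 2 genes or fewer were called higher in any alternative except for MYC targets (4 to 9) and duct markers (2 to 3). Those called lower numbered 2 to 5 for bHLH and MAX partners, 1 to 6 for BMP and TGF-beta, 0 to 4 for Notch, 1 to 2 for other KLF and SP factors, 2 to 4 for MYC targets, 1 to 2 for SOX and progenitor genes, 9 to 13 for beta cell genes, 1 to 3 for endothelial and 3 to 6 for immune markers. Libraries of 1116916 to 2272276 counts left 7 of the 14 rows untested, among them those of Id1, Id4, Klf10 and Sox9.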
